A study of Mus musculus with 2 samples.

Results

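The genes described here are 10 genes of muscle membrane repair, chosen by name as a list. They are the ferlins Dysf and Myof, the calpain genes Capn1, Capn2, Capn3 and Capns1, the tripartite motif gene Trim72, and the annexins Anxa1, Anxa2 and Anxa6, among 55536 annotated mouse genes with a value. The gastrocnemius, a calf muscle of mixed but mainly fast fibres, was taken from B6CASTF1/J females 14 days old, and its total RNA was sequenced. Such mice are the first-generation cross of C57BL/6J with CAST/EiJ, and the labels name no engineered allele and no treatment. There were 2 libraries, replicates 1 and 2 of 1 group, each made from 300 ng of RNA, so no condition was compared. The labels call them biological replicates with the same donor code, and give 3 females in both library descriptions but a female in the singular for the tissue of replicate 2. Whether a library held 1 animal or a pool was therefore unclear, and any spread between the libraries may be technical.

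The surface membrane of a muscle fibre can tear during contraction, and the calcium that enters starts its repair. Dysferlin binds calcium and phospholipid and helps vesicles to fuse at the tear, the Trim72 product MG53 gathers those vesicles, annexins form a cap over the wound, and calpains are calcium-dependent proteases that cut proteins at the site. In humans, loss of dysferlin or of calpain 3 causes limb-girdle muscular dystrophy.

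Gene counts summed to 35592003 in replicate 1 and 42105856 in replicate 2, and 11959 genes reached 1 TPM in both libraries. TPM is abundance divided by transcript length and scaled to a fixed total, so levels of different genes can be set side by side. The 6 myofibre markers Acta1, Ckm, Ttn, Myh4, Tnnt3 and Des summed to 69962 TPM in replicate 1 and 72872 TPM in replicate 2, and markers of nerve sheath, connective tissue, tendon, vessels, macrophages, satellite cells and red cells were present as well. In tissue RNA, fewer cells of a type and less RNA per cell cannot be told apart.

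All 10 genes were detected in both libraries, and their mean levels ran from 3.93 TPM for Myof to 141 TPM for Capns1. Capns1, Trim72 and Anxa6 were the most abundant, at about 100 TPM or more on average. Anxa2, Capn3, Dysf, Capn1 and Capn2 formed a middle group with means of 31.1 to 45.8 TPM. Anxa1 and Myof were lowest. By mean TPM among nuclear protein-coding genes, Capns1 ranked 396, Trim72 499 and Anxa6 521, while Anxa1 ranked 5053 and Myof 8073. The TPM of each of the 10 genes was higher in replicate 2, but the share of all genes higher there in TPM was not taken. After the scaling of library sizes used below, the log2 ratio of replicate 1 over replicate 2 was 0.0016 for Capn3 and -0.012 for Capn1.

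Dysferlin was the main ferlin. Dysf was at 38.7 TPM in replicate 1 and 45.2 TPM in replicate 2, from 4860 and 6887 counts, and averaged 42.0 ± 4.57 TPM (SD, n = 2). Myof encodes myoferlin, a close relative of dysferlin known for its role in the fusion of myoblasts. It was at 3.73 TPM in replicate 1 and 4.12 TPM in replicate 2, from 486 and 708 counts. Dysf thus exceeded Myof 10.4-fold in replicate 1 and 10.97-fold in replicate 2, a log2 ratio of 3.42 ± 0.056 (SD, n = 2) that was larger than the difference between the libraries. Together they held 92.3% of the TPM of the 6 ferlin genes in replicate 1 and 94.8% in replicate 2. Of the other 4 ferlins, Fer1l6 alone reached 1 TPM in both libraries, with 3.47 TPM in replicate 1 and 2.65 TPM in replicate 2, but its protein-coding transcripts held 0.18 and 0.17 TPM of that. Otof, the ferlin of hair cell synapses, was at 0.07 and 0.06 TPM, and Fer1l4 and Fer1l5 had 0 counts in both libraries, which allows up to 3 counts in each.

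Among the calpains, the regulatory subunit was above the proteases. Capns1 encodes the small subunit that pairs with the large subunits of calpain 1 (Capn1) and calpain 2 (Capn2). Capns1 was at 127 TPM in replicate 1 and 156 TPM in replicate 2. Capn1 was at 34.7 TPM in replicate 1 and 39.5 TPM in replicate 2, and Capn2 was at 27.8 and 34.5 TPM. The level of Capns1 was 3.65-fold that of Capn1 in replicate 1 and 3.95-fold in replicate 2, but 1.66-fold and 1.84-fold over protein-coding transcripts alone. Capn3 encodes calpain 3, the muscle calpain, which works without the small subunit and is held on titin. It was at 39.5 TPM in replicate 1 and 44.9 TPM in replicate 2.

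The 3 catalytic calpains lay close together, yet kept one order in both libraries. Capn3 exceeded Capn1 1.14-fold in either library, a log2 ratio of 0.18 in both. Capn3 exceeded Capn2 1.42-fold in replicate 1 and 1.30-fold in replicate 2. Capn1 exceeded Capn2 1.25-fold in replicate 1 and 1.15-fold in replicate 2. Each of these ratios was larger than the difference between the libraries. The choice of measure moved them more: the mean log2 ratio of Capn3 over Capn1 was 0.15 over protein-coding transcripts and 0.42 in counts not divided by length. The deposited interval of Capn3 ran from 38.1 to 41.9 TPM in replicate 1 and from 43.5 to 47.1 TPM in replicate 2. That of Capn1 ran from 31.5 to 37.2 TPM in replicate 1 and from 36.7 to 42.5 TPM in replicate 2, so the intervals of Capn3 and Capn1 were apart in both libraries.

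Capn1, Capn2 and Capn3 together held 76.0% of the TPM of the 13 genes of the calpain large-subunit family in replicate 1 and 74.3% in replicate 2. The next was Capn6, a member of the family that lacks the catalytic cysteine, at 14.8 TPM in replicate 1 and 22.3 TPM in replicate 2. Capn7 was at 10.8 and 12.01 TPM, and Capn10 at 2.19 and 2.27 TPM. Of the 11 other calpain genes, which include the second small subunit gene Capns2, 5 reached 1 TPM in both libraries. Calpastatin, the product of Cast, inhibits calpains 1 and 2. Cast was at 34.6 TPM in replicate 1 and 37.6 TPM in replicate 2, so Capn3 exceeded it 1.14-fold and 1.20-fold in the gene tables, while the second quantification put the mean log2 ratio at -0.0086. Ttn, which encodes titin, the scaffold that holds calpain 3, was at 1963 TPM in replicate 1 and 2041 TPM in replicate 2.

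Trim72 encodes MG53, a ubiquitin ligase of striated muscle that gathers repair vesicles at a tear. It was at 102 TPM in replicate 1 and 119.9 TPM in replicate 2, from 5847 and 7922 counts. Trim72 exceeded Dysf 2.64-fold in replicate 1 and 2.65-fold in replicate 2 in the gene tables. The size of this ratio depended on the quantification more than on the library: it was 3.30-fold and 3.41-fold in the second quantification, and 4.01-fold and 3.83-fold over protein-coding transcripts of the gene tables.

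Anxa6 was the most abundant annexin. It encodes annexin A6, a large annexin with a doubled set of annexin repeats that gathers at muscle tears, and was at 96.7 TPM in replicate 1 and 115 TPM in replicate 2. Anxa2, whose product pairs with S100A10 and binds dysferlin, was at 33.9 TPM in replicate 1 and 57.8 TPM in replicate 2. Anxa1, whose product also binds dysferlin, was at 8.13 TPM in replicate 1 and 10.8 TPM in replicate 2. Anxa6 exceeded Anxa2 2.86-fold in replicate 1 and 1.99-fold in replicate 2, and Anxa2 exceeded Anxa1 4.16-fold and 5.35-fold. Both ratios were larger than the difference between the libraries. The 3 annexins held 57.6% of the TPM of 12 annexin genes in replicate 1 and 59.3% in replicate 2. Anxa5 and Anxa11 were as abundant as Anxa2 or nearly so: Anxa5 had 33.6 TPM in replicate 1 and 50.9 TPM in replicate 2, and Anxa11 had 41.6 and 40.8 TPM. Anxa7 was at 10.3 and 12.8 TPM. Of the 9 other annexins, 5 reached 1 TPM in both libraries.

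**Figure D1:**
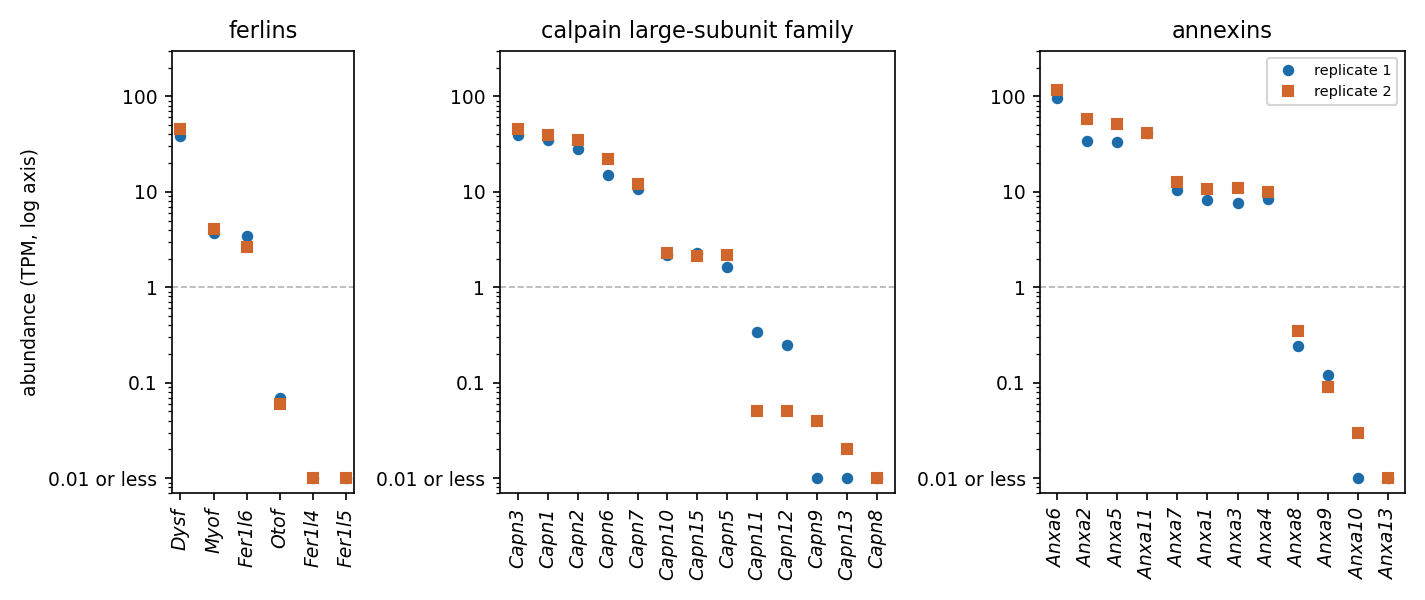
TPM (log axis) of every measured ferlin, calpain large-subunit and annexin gene in replicate 1 (circles) and replicate 2 (squares), in order of mean TPM, with values under 0.01 TPM drawn at 0.01 and a dashed line at 1 TPM. Dysf stands alone at the top of the ferlins, Capn3, Capn1 and Capn2 lead the calpains within a narrow range, and Anxa6 leads the annexins at 96.7 and 115 TPM.

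S100 proteins bind annexins and link them to each other or to membranes. S100a10 was at 38.2 TPM in replicate 1 and 52.1 TPM in replicate 2, S100a11 at 35.0 and 53.7 TPM, and S100a6 at 31.6 and 46.8 TPM. The partners Anxa2 and S100a10 were close in level: Anxa2 stood at 0.885-fold of S100a10 in replicate 1 and at 1.11-fold in replicate 2. That ratio changed sides between the libraries and was within their difference.

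In order of mean TPM the genes ran Capns1, Trim72, Anxa6, Anxa2, Capn3, Dysf, Capn1, Capn2, Anxa1 and Myof. Of the 9 pairs of neighbours in this order, 5 differed, meaning that they kept their order in both libraries and their deposited intervals were apart in each. Trim72 and Anxa6 did not differ by this measure, because their intervals overlapped in replicate 2. Anxa2 and Capn3 changed order between the libraries. By this measure Dysf could not be placed against Capn3 or Capn1. Its interval of 35.4 to 42.2 TPM in replicate 1 and 41.1 to 48.9 TPM in replicate 2 overlapped those of both. The second quantification, made by the authors directly from the reads, kept 7 of the 9 neighbour orders. It gave Capns1 174 TPM in replicate 1 and 209 TPM in replicate 2, Trim72 135 and 159 TPM, and Anxa6 124 and 146 TPM. It gave Dysf 41.0 TPM in replicate 1 and 46.5 TPM in replicate 2, and Anxa2 44.7 and 79.5 TPM. There Capn1 was at 42.7 and 48.3 TPM and Capn3 at 49.3 and 55.9 TPM, so Dysf lay below both in each library.

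**Figure D2:**
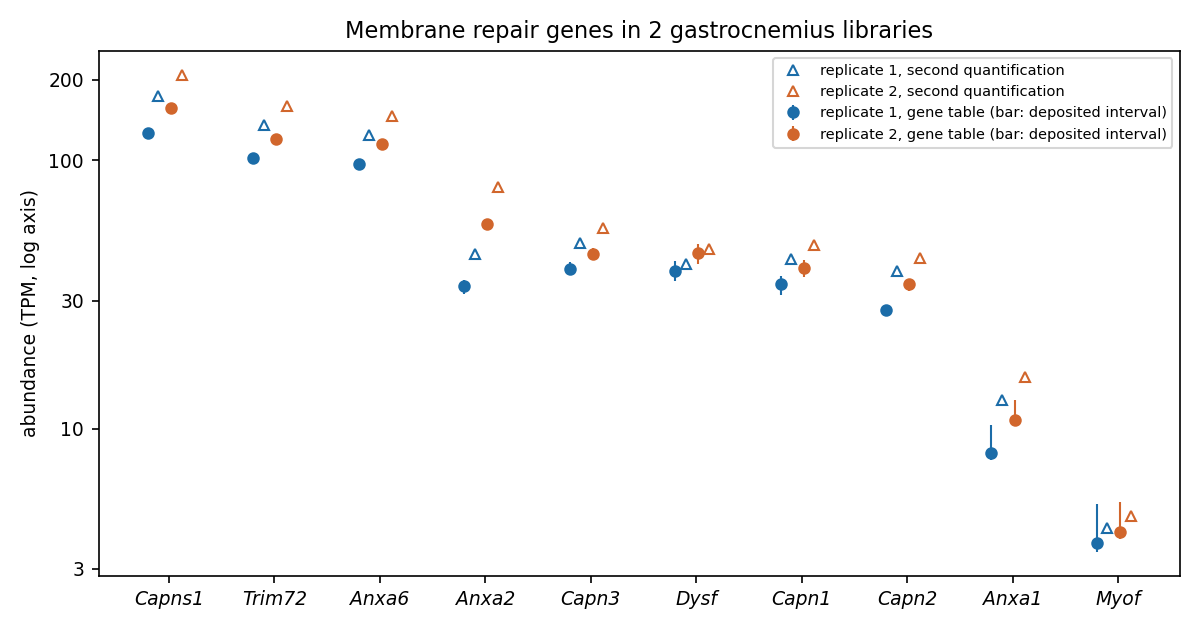
TPM (log axis) of the 10 genes in replicate 1 (left of each pair, blue) and replicate 2 (right, orange). Filled points are the gene tables with their deposited intervals as bars, and open triangles are the second quantification, which lies above the gene tables for each gene but keeps Capns1, Trim72 and Anxa6 at the top and Anxa1 and Myof at the bottom.

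The level of Capns1 depended on which of its transcripts were counted. The gene tables gave 54.1% of its TPM in replicate 1 and 52.5% in replicate 2 to Capns1-208, a transcript with a retained intron, and 44.8% and 46.0% to the protein-coding Capns1-203. The second quantification gave Capns1-208 5.70% in replicate 1 and 1.46% in replicate 2, and Capns1-203 61.4% and 66.7%. Capns1-201, also protein-coding, held 0.60% and 0.75% in the first table and 23.3% and 23.3% in the second. Over protein-coding transcripts of the gene tables alone, Capns1 was at 57.6 TPM in replicate 1 and 72.9 TPM in replicate 2. On that scale it lay below Trim72, at 102 and 119.9 TPM, and below Anxa6, at 95.9 and 114 TPM.

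The level of Dysf also depended on which transcripts were counted, but here through short transcripts with few counts. Dysf-207, a non-coding transcript of 404 bases, held 27.6% of its TPM in replicate 1 and 22.3% in replicate 2, yet only 91.9 and 100.1 counts, and 0 counts in the second quantification. Dysf-208, another non-coding transcript, held 5.87% and 7.23%, and 21.03% and 14.5% in the second quantification. Non-coding transcripts together held 34.1% and 30.7% of the TPM of Dysf but 2.74% and 2.60% of its counts. Those of Capns1 held 50.7% and 49.2% of its counts. In the second quantification the non-coding transcripts of Dysf held 22.1% of its TPM in replicate 1 and 16.3% in replicate 2. Over protein-coding transcripts, Dysf was at 25.5 TPM in replicate 1 and 31.3 TPM in replicate 2. On that scale it lay below Capn1, at 34.7 and 39.5 TPM, Capn3, at 38.9 and 43.55 TPM, and Capn2, at 27.1 and 33.3 TPM. Dysf-204 held 24.5% of Dysf in replicate 1 and 25.1% in replicate 2, and 34.6% and 36.7% in the second quantification. Dysf-202 held 25.03% and 36.4%, and 19.7% and 22.5% in the second. Dysf-201 and Dysf-210 passed 10% in the second quantification alone, Dysf-201 with 10.2% in replicate 1 and Dysf-210 with 11.01% in replicate 2.

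The 10 genes have 79 annotated transcripts, 43 of them protein-coding. In the gene tables' companion transcript tables, the leading transcript was the same in both libraries for 8 genes, all but Dysf and Anxa1. It was the same across both libraries and both quantifications for 5 genes, namely Capn2, Capn3, Trim72, Anxa2 and Anxa6. Trim72-202 held 99.1% of Trim72 in replicate 1 and 99.3% in replicate 2. Capn2-201 held 97.6% and 96.6% of Capn2, Anxa2-201 98.5% and 98.0% of Anxa2, and Capn3-202 97.1% and 96.1% of Capn3. For Capn1 the quantifications parted: Capn1-201 held 70.2% and 77.8% in the first transcript table but 34.9% and 9.11% in the second, where Capn1-202 led with 38.0% in replicate 1 and 63.8% in replicate 2. The posterior standard deviation of the count of Capn1-202 was 162 in replicate 1, against a count of 425, so the split between these near-identical transcripts is uncertain. For Myof, Myof-211 led in the first table with 52.4% and 45.0%, and Myof-201 led in the second with 40.9% and 50.2%. Smaller transcripts passed 10% in some tables only. They were Myof-205, with 18.1% in replicate 1 and 15.2% in replicate 2 of the first table, and Myof-203, with 11.5% in replicate 1 of the second. Capn1-205 held 27.1% and 24.98% in the second table, and Capn1-206 held 10.3% in replicate 1 of the first. Retained-intron transcripts of Capn2 (Capn2-204) and Anxa1 (Anxa1-202) held 10.5% and 11.5% in replicate 1 of the second table.

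Dysf, Capn3 and Capn1 each have 2 start sites in RefSeq, and the shares of the sites were much closer to equal in Dysf than in Capn3. For Dysf, transcripts from the upstream site held 46.5% of protein-coding TPM in replicate 1 and 47.3% in replicate 2, and those from the downstream site 53.5% and 52.7%. The second quantification put the upstream site at 47.4% in replicate 1 and 59.4% in replicate 2. For Capn3, the upstream site held 98.5% in replicate 1 and 99.1% in replicate 2, with 96.4% and 97.4% in the second quantification. The downstream site of Capn3, from which the shorter lens form of calpain 3 is made in rodents, held 1.54% and 0.94%. For Capn1 the upstream site held 19.5% in replicate 1 and 13.5% in replicate 2, but 65.1% and 88.7% in the second quantification, so its use was not settled by these tables. The sequences before the sites of Dysf and Capn3 are shown because Dysf drew on both of its sites and Capn3 almost wholly on one of its own. They come from RefSeq on GRCm38.p6, which has the same coordinates as mm10, on the plus strand, and show 230 of the 250 bases before each site. The last 20 bases are left off because annotated exons reach into them. Capitals mark E-boxes (CANNTG) and the MEF2 site, motifs of myogenic and MEF2 factors.

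Dysf upstream start site, chr6:84008348-84008577: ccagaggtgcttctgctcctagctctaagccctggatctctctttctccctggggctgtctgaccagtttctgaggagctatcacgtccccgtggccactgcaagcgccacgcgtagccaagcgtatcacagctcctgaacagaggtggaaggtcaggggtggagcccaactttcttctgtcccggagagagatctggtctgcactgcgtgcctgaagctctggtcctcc
Dysf downstream start site, chr6:84019136-84019365: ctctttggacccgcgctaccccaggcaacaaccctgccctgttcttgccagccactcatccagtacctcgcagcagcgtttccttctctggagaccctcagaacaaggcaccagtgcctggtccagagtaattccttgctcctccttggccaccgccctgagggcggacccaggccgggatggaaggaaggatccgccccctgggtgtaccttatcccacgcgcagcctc
Capn3 upstream start site, chr2:120463343-120463572: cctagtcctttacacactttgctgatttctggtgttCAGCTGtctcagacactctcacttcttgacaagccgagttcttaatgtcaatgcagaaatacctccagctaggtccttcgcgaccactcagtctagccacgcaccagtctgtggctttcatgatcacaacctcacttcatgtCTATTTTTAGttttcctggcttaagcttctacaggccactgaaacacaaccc
Capn3 downstream start site, chr2:120476659-120476888: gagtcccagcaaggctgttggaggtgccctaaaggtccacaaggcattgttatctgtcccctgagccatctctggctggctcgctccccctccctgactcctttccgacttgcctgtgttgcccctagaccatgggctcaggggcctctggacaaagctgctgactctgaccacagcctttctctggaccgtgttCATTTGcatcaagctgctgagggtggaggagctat

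The full 250 bases were searched on both strands for the E-box, the MEF2 site and the CArG box, each of which reads the same on either strand, and no matches overlapped. The upstream site of Capn3 had 1 E-box, 214 bases before the start, and 1 MEF2 match, 72 bases before it. The downstream site had 1 E-box, 55 bases before the start. Neither Dysf window held any of the 3 motifs. Of 32851 RefSeq promoter windows of this length, 66.2% held an E-box, 0.508% a MEF2 site and 1.47% a CArG box. Promoter windows were found for 9 of the 10 genes, all but Anxa6. The single window of Trim72 had 3 E-boxes, and no other window of the 10 genes had a MEF2 match.

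Several coding exons of these genes were included in some transcripts and skipped in others. Calpain 3 differs from its relatives by inserted stretches that other calpains lack, encoded by exon 6 and by exons 15 and 16 of Capn3-202. The 144-base exon 6 was included in 99.9% of the TPM of transcripts that span it in replicate 1 and in 100% in replicate 2. The 18-base exon 15 and the 114-base exon 16 were both included in 97.3% in replicate 1 and 98.0% in replicate 2, and in 95.03% and 95.8% in the second quantification. The exons are shown because nearly all Capn3 RNA in this muscle carried them. The exon is in capitals, with 15 bases of the neighbouring exons on either side in lower case, read from the GENCODE M21 transcript on mm10.

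Capn3 144-base exon, chr2:120486333-120486476: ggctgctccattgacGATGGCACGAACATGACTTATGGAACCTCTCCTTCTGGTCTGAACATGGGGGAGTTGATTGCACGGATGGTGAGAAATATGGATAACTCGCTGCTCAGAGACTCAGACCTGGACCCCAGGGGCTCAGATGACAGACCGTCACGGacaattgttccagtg
Capn3 18-base exon, chr2:120498968-120498985: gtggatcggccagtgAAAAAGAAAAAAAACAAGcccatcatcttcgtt
Capn3 114-base exon, chr2:120501211-120501324: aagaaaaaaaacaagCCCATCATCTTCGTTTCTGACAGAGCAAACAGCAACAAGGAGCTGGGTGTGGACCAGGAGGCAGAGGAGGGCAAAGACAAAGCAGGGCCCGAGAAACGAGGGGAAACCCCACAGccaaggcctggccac

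Dysferlin had 3 coding exons for which both forms held at least 5% of TPM in each library and each quantification. A 93-base exon, exon 6 of Dysf-215, was included in 10.7% of TPM in replicate 1 and 10.7% in replicate 2, against 13.2% and 12.3% in the second quantification. A 42-base exon, exon 17 of Dysf-202, was included in most transcripts, with 75.9% in replicate 1 and 89.3% in replicate 2, and with 80.8% and 88.3% in the second quantification. A 63-base exon, exon 41 of Dysf-215, was included in 8.57% and 10.4%, and in 10.5% and 15.3% in the second quantification. Each has a length divisible by 3, so including it keeps the reading frame. In humans, calpain cuts dysferlin at a site encoded by an alternative exon. Whether the 63-base exon is its mouse counterpart was not examined. The 3 exons lie on the plus strand of chromosome 6 and are shown because they set which dysferlin proteins the RNA can encode.

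Dysf 93-base exon, chr6:84064471-84064563: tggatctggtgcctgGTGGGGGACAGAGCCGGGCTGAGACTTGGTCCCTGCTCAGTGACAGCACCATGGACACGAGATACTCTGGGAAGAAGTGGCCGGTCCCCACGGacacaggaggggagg
Dysf 42-base exon, chr6:84096477-84096518: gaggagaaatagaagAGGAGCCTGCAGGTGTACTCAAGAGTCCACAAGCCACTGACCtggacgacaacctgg
Dysf 63-base exon, chr6:84157139-84157201: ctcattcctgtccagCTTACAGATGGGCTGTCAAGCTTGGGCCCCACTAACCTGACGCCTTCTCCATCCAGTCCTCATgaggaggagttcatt

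Among the annexins, Anxa6 had an 18-base coding exon, exon 21 of Anxa6-202, that accounts for the difference between its 2 main transcripts. Anxa6-202 carried the exon and held 72.7% of Anxa6 in replicate 1 and 69.9% in replicate 2, and Anxa6-201 lacked it and held 26.5% and 29.4%. Inclusion was 73.3% in replicate 1 and 70.4% in replicate 2, and 76.9% and 75.6% in the second quantification. Myof had a 39-base coding exon, exon 17 of Myof-211, at 85.3% in replicate 1 and 64.1% in replicate 2, but at 49.2% and 43.4% in the second quantification. The estimates of its inclusion thus ran from 43.4% to 85.3%, which does not include their errors. Myof-201, which lacks the exon, had 72.8 counts in replicate 1 of the first table, with a posterior standard deviation of 49.1. Both exons lie on the minus strand and are shown as the alternative coding stretches of an annexin and of the other ferlin.

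Anxa6 18-base exon, chr11:54987051-54987068: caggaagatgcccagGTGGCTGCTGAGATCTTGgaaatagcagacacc
Myof 39-base exon, chr19:37969907-37969945: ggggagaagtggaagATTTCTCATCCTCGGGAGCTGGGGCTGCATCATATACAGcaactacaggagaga

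**Figure D3:**
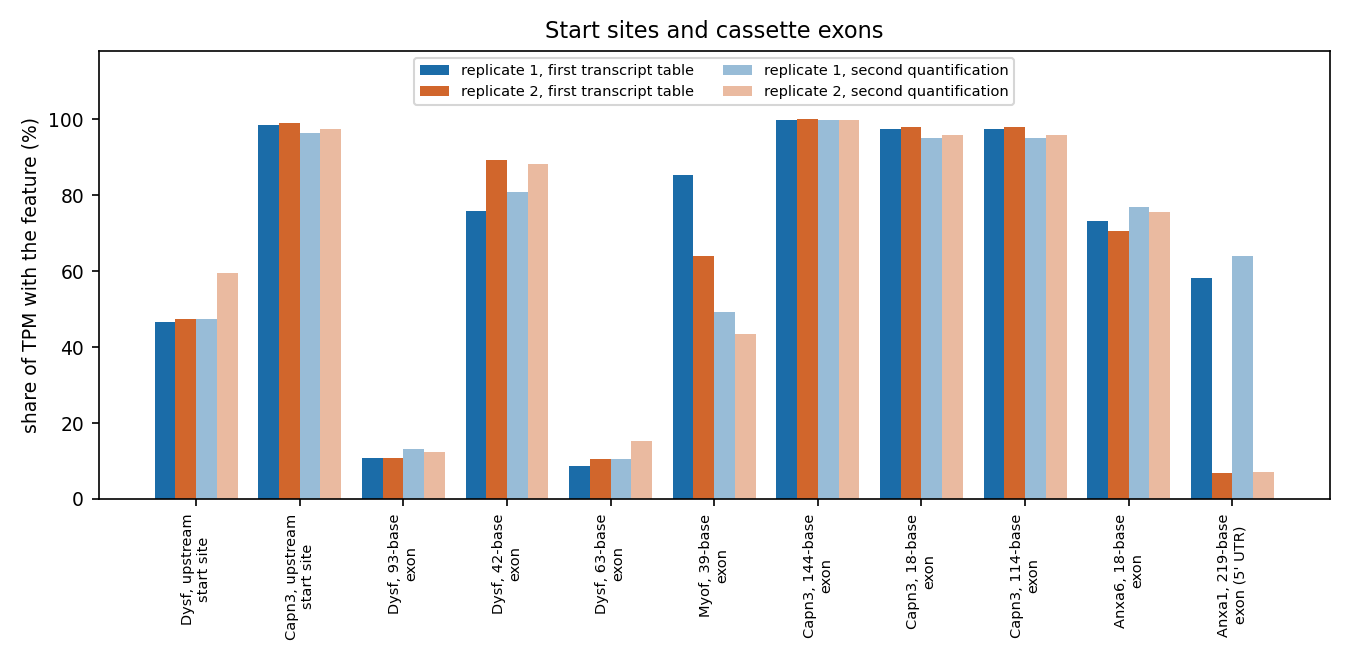
Share (%) of TPM from the upstream start site (of protein-coding transcripts) or with the exon included (of transcripts that span it), in replicate 1 and replicate 2, by the first transcript table (full colour) and by the second quantification (pale). The Capn3 features are near 100% and the rare Dysf exons near 10% in all 4 bars, the Myof exon differs by quantification, and the 219-base exon of Anxa1 differs by library, at 58.1% and 6.76%.

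Anxa1 was the one gene whose leading transcript differed between the libraries in both quantifications. Anxa1-208, which has an additional 219-base exon before the coding part, held 54.9% of Anxa1 in replicate 1 and 6.46% in replicate 2. Anxa1-201, which lacks that exon and has a coding part of the same length, held 39.6% in replicate 1 and 79.8% in replicate 2. Yet Anxa1-208 is 1622 bases long and Anxa1-201 1674, so they also differ outside that exon. Which of these differences set the split was not tested. Inclusion of the exon was 58.1% and 6.76% in the first transcript table and 64.0% and 7.11% in the second. These shares rest on few reads: Anxa1-208 had 191 counts in replicate 1 and 34.5 in replicate 2, with posterior standard deviations of 54.7 and 60.4 counts.

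The libraries were then compared with each other, which measures their agreement and no condition. Log2 ratios are replicate 1 over replicate 2, after TMM scaling of library sizes, and p-values come from a two-sided exact binomial test that covers counting error only. A gene was called where its Benjamini-Hochberg adjusted p was under 0.05 and it differed by 2-fold or more. Of 15734 genes tested, 518 (3.29%) were called, 1.58% higher in replicate 1 and 1.71% higher in replicate 2. None of the 10 membrane repair genes was among them. At an adjusted p under 0.05 and any fold, 7 of the 10 passed, all higher in replicate 2, against 31.1% of all genes in either direction and 14.5% higher in replicate 2. At an unadjusted p under 0.05 the count was 7 of 10 as well, but the share of all genes at that limit was not taken. A test of counting error alone passes smaller differences where counts are higher. The shares of all genes were not matched to the counts of the 10 genes, so no excess among the 10 can be read from them. In edgeR's exact test with a common coefficient of variation of 0.159, 156 genes were called and none of the 10 passed at an unadjusted p under 0.05. That coefficient was estimated from the same 2 libraries taken as 1 group, so it includes any difference between them. The median log2 ratio was -0.13 over the 10 genes and -0.0015 over all genes tested.

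Of the 10 genes, Anxa2 differed most between the libraries. Its 1283 counts in replicate 1 and 2514 in replicate 2 gave a log2 ratio of -0.59 (95% interval -0.69 to -0.50, adjusted p = 1.11e-32 by the exact binomial test, and 0.997 by edgeR's exact test). The other 9 genes had log2 ratios between -0.26 for Anxa1 and 0.0016 for Capn3. Capn3 and Capn1, with a log2 ratio of -0.012, differed by less than their counting error on this scale. Myof, at -0.16 (95% interval -0.33 to 0.0036), did not pass the binomial test. Dysf, at -0.13, Capns1, at -0.13, and Trim72, at -0.060, passed the binomial test with differences far under 2-fold, Trim72 only narrowly. Fewer of the 10 genes passed with DESeq2 size factors in place of TMM scaling.

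Most connective tissue markers and all tendon markers differed in the same direction as Anxa2. Among fibro-adipogenic markers, 4 of 5 had an adjusted p under 0.05 and were higher in replicate 2, with summed levels of 2117 TPM in replicate 1 and 3383 TPM in replicate 2. Of these sums Col1a1 held 1127.5 TPM in replicate 1 and 1958.4 TPM in replicate 2, and Col3a1 759 and 1135 TPM. Dcn and Lum had log2 ratios of -0.18 and -0.19. Pdgfra, the exception, had a log2 ratio of 0.070, on the other side from Anxa2. All 4 tendon markers were higher in replicate 2, with sums of 154 and 216 TPM. All 4 Schwann cell markers used were higher in replicate 2, with sums of 132 and 318 TPM, and 2 of them were called. In smooth muscle and pericyte markers, 3 of 5 were higher in replicate 2 and 2 in replicate 1, with sums of 312 and 514 TPM. Of these sums Acta2 alone held 119 TPM in replicate 1 and 306 TPM in replicate 2. The log2 ratios were -1.18 for Acta2, -0.76 for Tagln, -0.13 for Myh11, 0.11 for Abcc9 and 0.21 for Rgs5. All 6 myofibre markers had an adjusted p under 0.05 and were higher in replicate 1 on the TMM scale, although in TPM 5 of the 6, all but Tnnt3, were higher in replicate 2. All 5 red cell markers were called higher in replicate 1, with sums of 2947 and 1495 TPM. Of the endothelial markers 3 of 5 were higher in replicate 1, with sums of 175 and 171 TPM, and of the satellite cell markers 1 of 4 was higher in replicate 2, with sums of 14.3 and 18.2 TPM. None of 5 macrophage markers passed, with sums of 38.2 and 44.1 TPM. Every marker on these lists reached 1 TPM in both libraries. Their part in the difference in Anxa2 was not tested.

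The S100 partners lay on the same side as Anxa2. Of the 4 S100 genes, 3 had an adjusted p under 0.05, all higher in replicate 2, and the median log2 ratio of the 4 was -0.43. Their summed level was 110 TPM in replicate 1 and 161 TPM in replicate 2. The ratio was -0.28 for S100a10, -0.45 for S100a11 and -0.42 for S100a6. Among other annexins, Anxa5 had a log2 ratio of -0.40, while Anxa11 had one of 0.20. None of these genes was called, and the part of the same markers in these values was not tested.

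**Figure D4:**
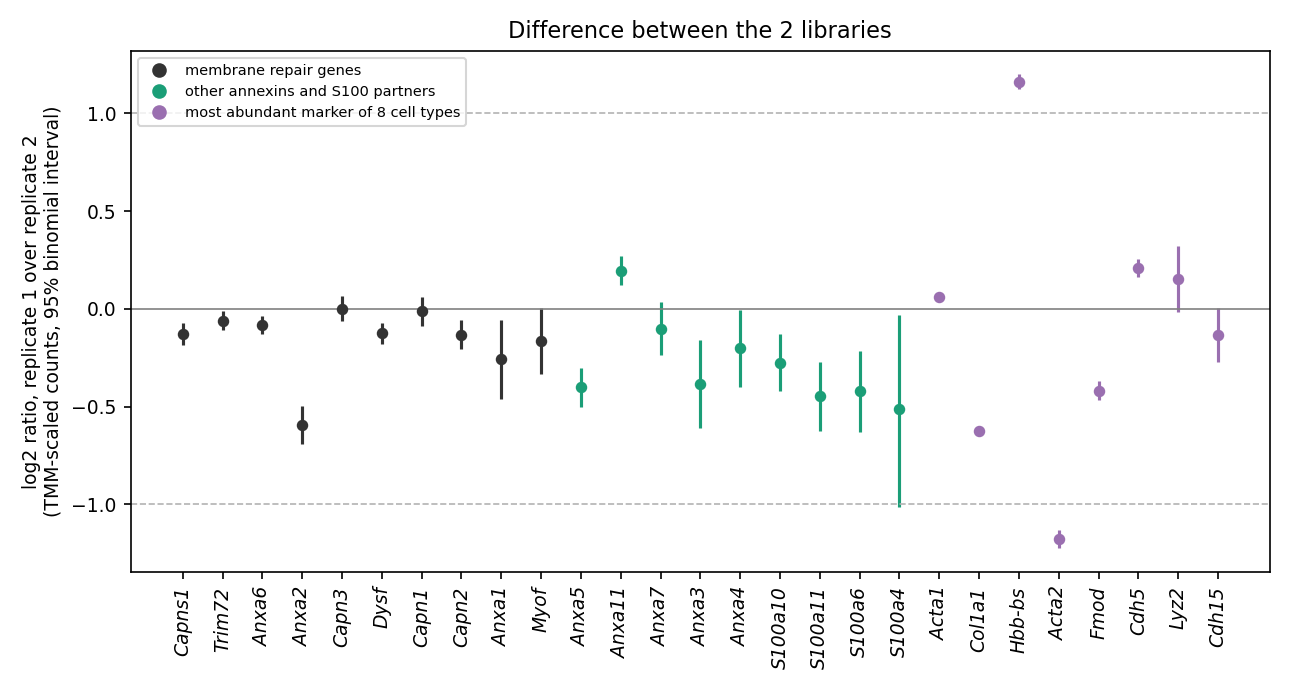
Log2 ratio of replicate 1 over replicate 2 (TMM-scaled counts) with 95% binomial intervals for the 10 membrane repair genes, the other annexins and the S100 genes at 1 TPM or more, and the most abundant marker of every listed cell type but Schwann cells, with dashed lines at the 2-fold limits. Anxa2 is the lowest of the 10 genes at -0.59, and the S100 genes lie between -0.28 and -0.51. The single markers drawn for smooth muscle (Acta2) and red cells (Hbb-bs) lie beyond the 2-fold limits. The other smooth muscle and pericyte markers, not drawn, differed by less than 2-fold.

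Most genes on lists of related function were detected in this muscle. Of 66 further genes measured on 8 such lists, 52 reached 1 TPM in both libraries, against 11959 of all 55536 annotated genes. The annotated genes include non-coding ones, and no share of protein-coding genes was taken. Of the other ferlins 1 of 4 did so, of the other calpains 5 of 11 and of the other annexins 5 of 9. All 9 partners of dysferlin and MG53 at the surface membrane did so. Bin1, which shapes transverse tubules, was at 258 TPM in replicate 1 and 315 TPM in replicate 2. Cavin1, a coat protein of caveolae and a docking protein for MG53, was at 100.1 and 125 TPM, and Ahnak, a very large protein that binds dysferlin and annexin A2, was at 88.1 and 94.5 TPM.

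The ESCRT proteins pinch off damaged membrane, and 16 of 17 of their genes reached 1 TPM in both libraries. Chmp4b was at 43.6 TPM in replicate 1 and 47.4 TPM in replicate 2, Chmp2a at 40.3 and 50.3 TPM, and Vps4a, the ATPase that takes the filaments apart, at 25.2 and 24.7 TPM. For vesicle fusion and lysosome exocytosis, 10 of 10 measured genes reached 1 TPM. The most abundant were the lysosomal genes Ctsd, at 135 TPM in replicate 1 and 131 TPM in replicate 2, Lamp1, at 107 and 108 TPM, and Ctsb, at 105 and 95.1 TPM.

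Between the libraries, 1 of the 56 tested genes on these lists was called, against 3.29% of all genes. It was Capn11, a calpain gene known for expression in testis, with 24 counts in replicate 1 and 4 in replicate 2. Its log2 ratio was 2.82 (95% interval 1.42 to 4.95, adjusted p = 6.89e-05 by the exact binomial test, and 0.0159 by edgeR's exact test). Its level was 0.34 TPM in replicate 1 and 0.05 TPM in replicate 2. An adjusted p under 0.05 at any fold was reached by 16.6% of all genes higher in replicate 1 and 14.5% higher in replicate 2 on the TMM scale, not matched for counts. By the same measure, ESCRT genes counted 3 higher in replicate 1 and 0 higher in replicate 2, and vesicle and lysosome genes 5 and 0. The partners at the surface membrane counted 2 and 4, the other annexins 1 and 2, the other calpains 1 and 1, and the other ferlins 0 and 0. Of Cast and Ttn, Ttn alone passed, with a log2 ratio of 0.12.

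Positions are on mm10 as annotated in GENCODE M21, and each of the 10 genes is protein-coding. Dysf (ENSMUSG00000033788.15) spans chr6:84008590-84211060 on the plus strand, and Capn3 (ENSMUSG00000079110.11) spans chr2:120456019-120504913 on the plus strand. Capns1 (ENSMUSG00000001794.13) lies at chr7:30186936-30198811 on the minus strand, and Trim72 (ENSMUSG00000042828.12) at chr7:128003949-128011033 on the plus strand. Anxa2 (ENSMUSG00000032231.14) lies at chr9:69453620-69491795 on the plus strand, Anxa6 (ENSMUSG00000018340.13) at chr11:54979108-55033445 on the minus strand, and Anxa1 (ENSMUSG00000024659.15) at chr19:20373428-20390944 on the minus strand. Myof spans chr19:37899036-38043577, Capn1 chr19:5988545-6015897 and Capn2 chr1:182467260-182517608, all on the minus strand. The 219-base exon of Anxa1 is at chr19:20388475-20388693. Capn3 overlaps Ganc on the same strand, which had 1279.7 counts in replicate 1 and 1604 in replicate 2. The posterior standard deviation of the Capn3 count was 0.047% of the count in replicate 1 and 0.040% in replicate 2, and it was 0 for the other 9 genes. Antisense genes overlapping the 10 held at most 28 counts each. How the strand was used in counting is not given in the sources used here.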

How the data were processed

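Total RNA of 2 gastrocnemius libraries was measured. For each library the deposited files are gene and transcript tables from transcriptome alignments, and another transcript table made straight from the reads, called the second quantification, on mm10 with GENCODE M21, per the accompanying notes. No source used here names the aligner, the quantifiers or the interval level. Per the file headers, the tables hold expected counts, TPM, posterior mean TPM and an isoform percent. The deposited interval bounds and posterior standard deviations are signal values around them. Reads of CAST/EiJ alleles were set against the C57BL/6J genome, and what this loses was not measured. Rows named only by a number (26248, with 1 and 0 counts) were left out.

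For tests, the deposited expected counts were rounded. TMM factors from edgeR 4.0.16 were 0.954 and 1.05. The quasi-likelihood test of edgeR needs residual degrees of freedom, of which 1 library against 1 leaves none. Genes with a summed count of at least 20 were tested instead by the exact binomial test, two-sided. It was checked on simulated counts that varied by counting error only, as the test assumes. That check cannot show its error rate where libraries vary by more than this. Ratios of genes were taken per library from TPM, and the mean log2 ratio was set against the difference between the libraries. That difference does not cover errors of length or of read assignment that both libraries share. Start site shares take protein-coding transcripts beginning within 500 bases of a RefSeq start. The alternatives were DESeq2 1.42.0 size factors, total counts, no count filter, edgeR's exact test, the second quantification, posterior mean TPM, TPM over nuclear protein-coding genes, counts not divided by length, a pseudocount of 1 TPM and leaving out a library. The software was Python 3.11.15 with scipy 1.17.1, numpy 2.4.6, pandas 2.3.3 and matplotlib 3.10.9, and R 4.3.3. Spike-ins had 285877 and 317175 counts.

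The genes and lists were chosen with earlier results of these data known. The text names all 10 genes, the 3 genes of highest mean TPM of each list of related function and any gene of those lists called between the libraries, and transcripts holding at least 10% of a gene's TPM in either library and quantification. Vamp7 had no matching ID. A marker gene of the lists is not reported here. Exons and start sites, and the values over protein-coding transcripts, were added after seeing the data. The binomial intervals and the floors cover counting error only. Which errors the deposited intervals cover is not given in the sources used here.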

Additional observations from a re-analysis of the deposited data

How the results depend on the processing

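No paired analysis was possible because the series holds 1 group. Leaving out a library gives no value for calls or for leading transcripts that must agree in both. The ratio of Capn1 over Capn2 was 0.0027 (log2) in counts not divided by length, no longer larger than the difference between libraries, and that of Anxa2 over S100a10 was 1.18 there. Capn3 over Cast was -0.0086 in the second quantification. Of the 10 genes, 3 kept their place in the order in counts not divided by length, 4 over protein-coding transcripts alone (chosen after seeing the data), and 6 to 8 from either library alone. The cause was not tested, except that counts not divided by length rank long transcripts higher by construction. With edgeR's exact test, 156 genes were called against 518, and 0 of the 10 genes had an adjusted p under 0.05 against 7. Total-count scaling shifted the median log2 ratio of all genes to -0.14, called 586 genes, 187 of them higher in replicate 1 against 249 of 518, and put all 10 genes at an adjusted p under 0.05. The ratios from either library alone spanned 3.38 to 3.46 for Dysf over Myof, 0.18421 to 0.18445 for Capn3 over Capn1, 0.38 to 0.51 for Capn3 over Capn2, 0.20 to 0.32 for Capn1 over Capn2, 1.87 to 1.98 for Capns1 over Capn1, 1.40 to 1.41 for Trim72 over Dysf, 0.99 to 1.51 for Anxa6 over Anxa2, 2.06 to 2.42 for Anxa2 over Anxa1, -0.18 to 0.15 for Anxa2 over S100a10, and 0.19 to 0.26 for Capn3 over Cast. Apart from Anxa2 over S100a10, which lay on either side of equality and within the difference between libraries (0.0013 with posterior mean TPM), and the exceptions above, the ratios kept their direction and stayed larger than that difference. By over 1.5 times moved Capns1 over Capn1 (log2 0.85 in counts not divided by length and 0.81 over protein-coding transcripts, against 1.93), Trim72 over Dysf (0.23 in counts not divided by length, against 1.40) and Anxa6 over Anxa2 (2.08 there, against 1.25). So did Capn3 over Capn1 (0.42 there, against 0.18) and Capn3 over Cast (0.47 there, against 0.22). Capn1 over Capn2 was 0.15 in the second quantification, against 0.26. The mean TPM of 8 of the 10 genes moved by more than the SD of the 2 libraries in the second quantification, and of 3 over protein-coding transcripts. Rescaled to nuclear protein-coding genes all 10 moved, to between 8.03 TPM for Myof and 289 TPM for Capns1, by construction since other RNA leaves the total. Counts per gene and library ran from 336 for Anxa1 to 8907 for Anxa6.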
